A study of Homo sapiens with 6 samples.

Results

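miR-625 is a human microRNA whose hairpin, MIR625, lies inside the gene FUT8 and yields a mature product from each arm. Its members here were the rows of the miRNA count table named hsa-miR-625-3p and hsa-miR-625-5p, 2 of 2656 mature miRNAs. Small RNA was sequenced from azacitidine-resistant K562 cells and from azacitidine-sensitive K562 cells, with 3 libraries each that the labels call biological replicates. K562 is a human leukaemia line, which the labels call a myeloblast. The resistant cells were made from sensitive ones by long culture in rising concentrations of azacitidine, a cytidine analogue that traps DNA methyltransferases, and both forms were grown in the same serum-supplemented RPMI medium. Every library name ends in NT, an abbreviation the labels do not explain. They also do not say whether the drug was in the medium at harvest, nor whether more than 1 line was selected, so p-values cover the spread between these libraries, which may be technical. miR-625 was chosen by the edgeR calls and fold changes of both arms between these same libraries. Its levels and arm ratio between the groups are therefore given as a description, without a test.

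A microRNA hairpin is cut by Drosha in the nucleus and by Dicer in the cytoplasm into a short duplex, and 1 strand of that duplex is kept by an Argonaute protein. The kept strand finds messenger RNAs mainly through its seed, the bases near its 5′ end, and lowers their stability and translation. When a hairpin lies in an intron of a protein-coding gene on the same strand, it is often cut out of the transcript of that host. FUT8, the host here, encodes the enzyme that adds core fucose to N-glycans on cell surface and secreted proteins. In colorectal cancer, miR-625-3p has been linked to the response to oxaliplatin and to repression of MAP2K6, a kinase upstream of p38.

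The mature sequences (RefSeq, GRCh38.p14) are shown first because both the pairing of the arms and the counting of their reads turn on them. In the mature sequences the capitals mark the seed, bases 2 to 8, and in the hairpin they mark the mature arms. All are written 5′ to 3′.
hsa-miR-625-3p: gACUAUAGaacuuucccccuca
hsa-miR-625-5p: aGGGGGAAaguucuauagucc
MIR625 hairpin: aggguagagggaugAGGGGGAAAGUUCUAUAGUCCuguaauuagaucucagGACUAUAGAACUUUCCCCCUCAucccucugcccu

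The hairpin of 85 bases lies on the plus strand of chromosome 14 at chr14:65471102-65471186, with the 5p arm at 65471116 to 65471136 and the 3p arm at 65471153 to 65471174. FUT8 spans 65356842 to 65744121 on the same strand in RefSeq. In GENCODE 29, 10 of the 15 FUT8 transcripts span the hairpin, and in 0 of these does it touch an exon. In the transcript FUT8-203, which starts 60510 bases upstream of the hairpin, it lies in the intron between exons 2 and 3, 15384 bases after the end of exon 2 and 90151 bases before exon 3. No gene other than FUT8 spanned it there.

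The arms of miR-625 are nearly perfect complements. Bases 1 to 20 of miR-625-5p form an unbroken run of 20 Watson-Crick pairs with bases 1 to 20 of miR-625-3p. Over 720 arm pairs with sequences in RefSeq and rows in the table, the median of the longest run was 7 bases, and 16 pairs (2.22%), miR-625 included, had a run of at least 20. In the minimum free energy fold of the hairpin (ViennaRNA, -75.0 kcal/mol), 74 of its 85 bases were paired, among them all 21 bases of the 5p arm and all 22 bases of the 3p arm. The GC content was 45.5% for miR-625-3p and 47.6% for miR-625-5p, close to the median of 47.8% over the 677 tested miRNAs with a sequence. None of the 2368 other mature sequences in the RefSeq table has the seed of either arm, so no seed family could be described. Because the arms are reverse complements, a read of 1 arm counted without regard to strand could be assigned to the other. How strand was handled in the counting is not given in the sources used here.

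**Figure D1:**
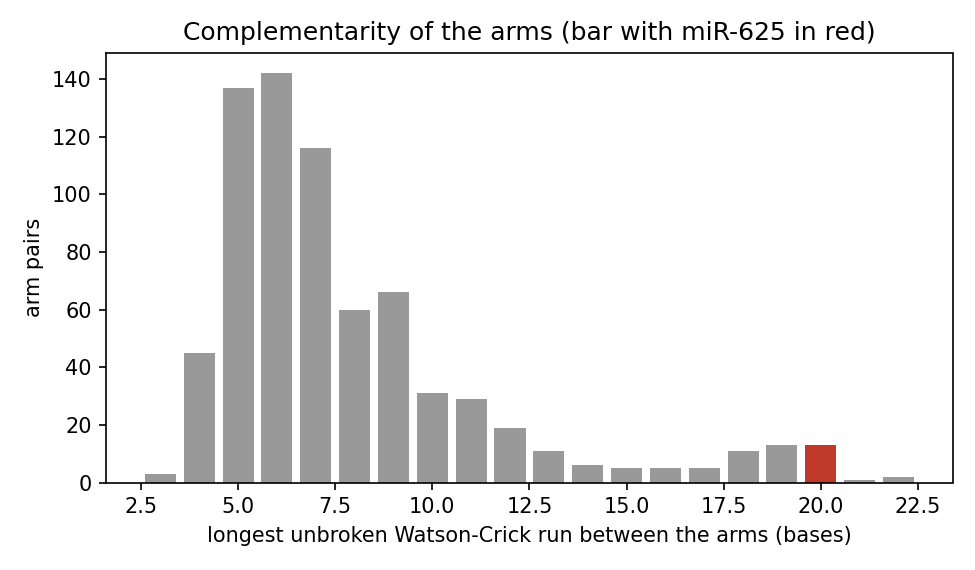
The bars give the number of arm pairs (vertical axis) by the longest unbroken run of Watson-Crick pairs between their 5p and 3p arms, in bases (horizontal axis), over 720 arm pairs. The red bar, at 20 bases, holds miR-625, and the median pair lies at 7 bases.

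Libraries held 3291500 to 10644739 counts in resistant and 5660055 to 12563945 counts in sensitive cells. Resistant replicate 3, the smallest, stood apart: over the tested miRNAs, which are not independent of each other, Pearson's r of its log2 CPM was 0.861 with resistant replicate 1 and 0.851 with resistant replicate 2, and 0.994 between those. Annotations that resemble fragments of other RNAs, a sign of RNA quality, made up 4.90% of its counts (7 of 10 listed were in the table). The share was 0.987% and 1.01% in resistant replicates 1 and 2 and 1.07% to 1.65% in sensitive libraries. In resistant replicate 3 it was mostly miR-1260a and miR-1260b, at 72968 and 77296 counts, so it rests largely on these annotations. Their counts were similar to each other in every library. Of 4 listed miRNAs of blood cells, miR-142-3p, miR-142-5p and miR-223-3p were detected in every library and miR-155-5p was at most 0.785 CPM in any. The blood list summed to 1351 to 10464 CPM in resistant and 11646 to 13051 CPM in sensitive libraries. The 4 erythroid miRNAs of the list, miR-451a, miR-144-3p, miR-144-5p and miR-486-5p, summed to 10390 to 63503 CPM in resistant and 5206 to 7105 CPM in sensitive libraries, mostly miR-486-5p. Of these, only miR-486-5p averaged higher in resistant cells. miR-451a averaged 141 CPM in resistant and 272 CPM in sensitive cells, and miR-144-3p 172 and 229 CPM. miR-144-5p averaged 290 CPM in both groups. The 8 listed miRNAs of other cell types summed to 53.6 to 98.2 CPM in resistant and 53.1 to 110 CPM in sensitive libraries, mostly miR-375-3p, and the pluripotency miRNAs miR-302a-3p and miR-302b-3p were at 0 counts. The blood, erythroid and fragment-like sums moved with the groups or with resistant replicate 3, and their part in the levels of miR-625 was not tested. The sum for other cell types overlapped between the groups.

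miR-625-3p, by far the more abundant arm, was lower in resistant cells. It had 519, 571 and 98 counts in resistant replicates 1 to 3, against 2633, 2366 and 1789 counts in sensitive replicates 1 to 3. In CPM, counts relative to library sizes scaled by the trimmed mean of M values (TMM), these were 52.8, 43.1 and 38.5 CPM in resistant cells, against 219, 242 and 331 CPM in sensitive cells. All resistant libraries lay below all sensitive ones, and the lowest sensitive library was 4.15 times the highest resistant one. Such a separation in the downward direction was found for 22.9% of the 768 tested miRNAs. miR-625-3p averaged 44.8 ± 7.31 CPM in resistant and 264 ± 59.1 CPM in sensitive cells (SD, n = 3 each), a log2 fold change of -2.56 (SE 0.40) for resistant over sensitive. Among the miRNAs with counts in a library it ranked 288, 308 and 303 from the top in resistant replicates 1 to 3, against 177, 175 and 153 in sensitive replicates 1 to 3. In a cell line sequenced in bulk, fewer cells making the miRNA and less of it per cell cannot be told apart.

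miR-625-5p, the minor arm, was lower in resistant cells as well. It had 39, 52 and 19 counts in resistant replicates 1 to 3, against 238, 175 and 120 counts in sensitive replicates 1 to 3. These were 3.97, 3.92 and 7.46 CPM in resistant cells, against 19.8, 17.9 and 22.2 CPM in sensitive cells. The groups did not overlap, and resistant replicate 3 was the highest of the resistant libraries, where for miR-625-3p it was the lowest. The exact Poisson 95% interval of its 19 counts ran from 11.4 to 29.7 counts. miR-625-5p averaged 5.12 ± 2.03 CPM in resistant and 19.96 ± 2.17 CPM in sensitive cells (SD, n = 3 each), a log2 fold change of -2.00 (SE 0.44). In CPM on the raw library totals, without TMM factors, it averaged 5.12 ± 0.575 in resistant and 19.1 ± 2.03 in sensitive libraries, and miR-625-3p averaged 48.6 ± 16.9 in resistant and 253 ± 56.1 in sensitive libraries (SD, n = 3 each).

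**Figure D2:**
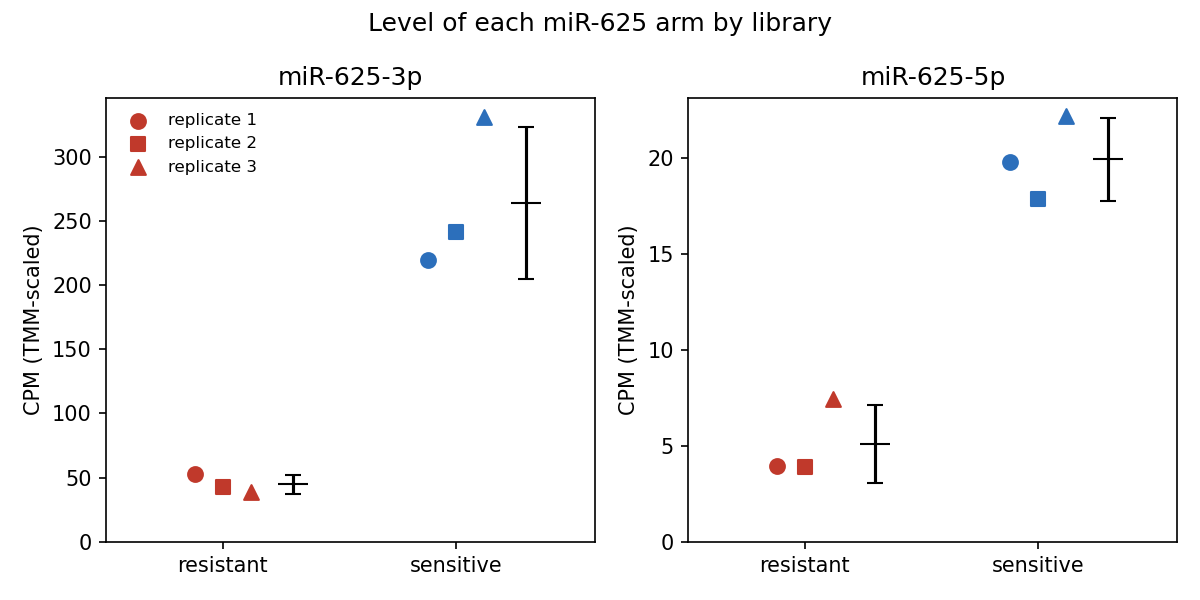
Level of miR-625-3p (left) and miR-625-5p (right) in CPM on TMM-scaled library sizes (vertical axes) in resistant (red) and sensitive (blue) libraries, with the mean and SD of 3 libraries in black. The resistant libraries lie at 38.5 to 52.8 CPM for the 3p arm and at 3.92 to 7.46 CPM for the 5p arm, below every sensitive library.

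With both arms summed, the hairpin gave 49.9 ± 5.97 CPM in resistant and 284 ± 60.9 CPM in sensitive cells (SD, n = 3 each), 5.69-fold lower. Without resistant replicate 3, the mean of the remaining 2 resistant libraries was 51.9 CPM for the sum, 5.47-fold below the sensitive mean. It was 47.9 CPM for miR-625-3p, 5.50-fold below the sensitive mean, and 3.95 CPM for miR-625-5p, 5.06-fold below it. Relative to the median of all tested miRNAs, the log2 fold changes were -2.45 for the 3p arm and -1.89 for the 5p arm with TMM factors, and -2.46 and -1.99 when library totals alone were used.

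Both arms were among the 16 of 768 tested miRNAs that edgeR's quasi-likelihood test called lower at a Benjamini-Hochberg adjusted p under 0.05, a share of 2.08%, and they were chosen with these calls known. In fits that left out 1 library, both arms were called in the fit without resistant replicate 3 (log2 fold changes of -2.41 for miR-625-3p and -2.28 for miR-625-5p), where 14.4% of 822 tested miRNAs were called lower. Neither was called in the other 5 such fits. There the log2 fold changes for miR-625-3p were -2.59 and -2.34 without resistant replicates 1 and 2, and -2.54, -2.49 and -2.30 without sensitive replicates 1 to 3. For miR-625-5p they were -1.73 and -1.60 without resistant replicates 1 and 2, and -1.83, -1.90 and -1.83 without sensitive replicates 1 to 3. miR-625-5p was also not called with relative log expression (RLE) factors (-1.84), with a minimum mean of 10 CPM (-1.78) or with the replicate number as a block (-2.03). In all these fits both log2 fold changes stayed negative, which is no independent support, since the same counts chose miR-625.

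The 3p arm was the main product in all 6 libraries. The ratio of 3p to 5p counts was 13.3, 11.0 and 5.16 in resistant replicates 1 to 3, against 11.1, 13.5 and 14.9 in sensitive replicates 1 to 3. Resistant replicate 1 lay within the sensitive range, resistant replicate 2 just below it, and resistant replicate 3 below every other library. The ratio averaged 9.82 ± 4.20 in resistant and 13.2 ± 1.95 in sensitive libraries (SD, n = 3 each). Without resistant replicate 3 it averaged 12.1 ± 1.65 (SD, n = 2) in resistant libraries. As a share of both arms' counts, the 5p arm made up 6.99%, 8.35% and 16.2% in resistant replicates 1 to 3, against 8.29%, 6.89% and 6.29% in sensitive replicates 1 to 3. The exact binomial 95% interval for resistant replicate 3, which had 117 counts over both arms, ran from 10.1% to 24.2%, and it overlapped that of resistant replicate 2 (6.30% to 10.8%) and that of no other library.

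**Figure D3:**
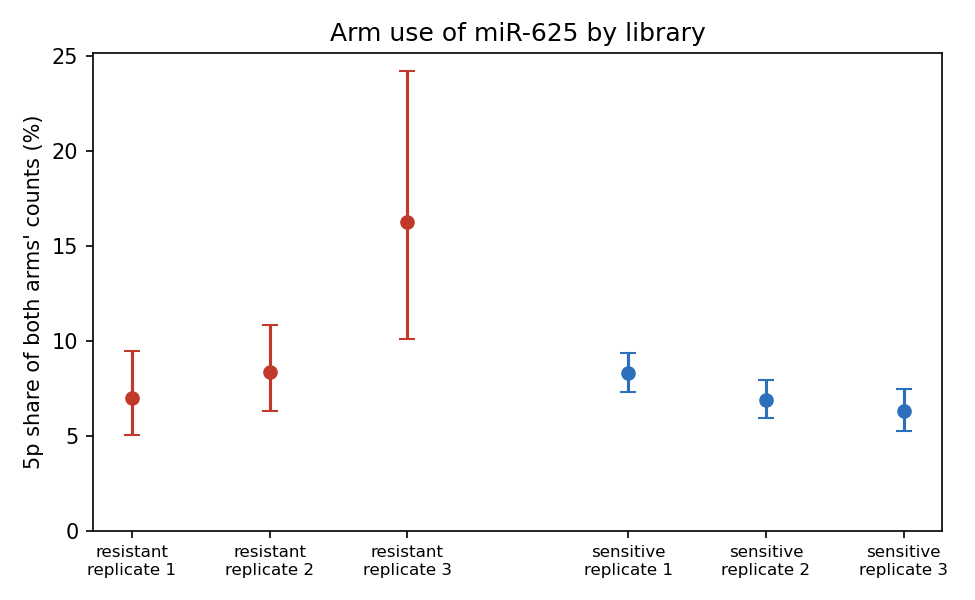
Share of miR-625-5p in the counts of both arms (vertical axis, percent) in each library, with exact binomial 95% intervals that cover counting error only. Resistant replicate 3 stands at 16.2%, and the other 5 libraries lie between 6.29% and 8.35%.

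The difference in the log2 ratio of 3p to 5p, resistant minus sensitive, was -0.54 (SE 0.47), from means of 3.17 in resistant and 3.70 in sensitive libraries. It was -0.12 (SE 0.31) without resistant replicate 3. The same ratio was computed for the 174 arm pairs with both arms tested, and 98 of them (56.3%) had a larger absolute difference than miR-625. Over these pairs the median difference was -0.08, with quartiles of -0.72 and 0.53. The ratios of the groups overlapped for miR-625, whereas they did not overlap for 22.4% of the pairs. limma, with p-values adjusted over the 174 pairs, called 1.15% of them, miR-181a and miR-181b, whose 3p arms had 0 counts in resistant libraries. The log2 ratio of resistant replicate 3 lay 1.24 below the mean of resistant replicates 1 and 2 for miR-625, and 48.3% of the pairs had a larger absolute deviation in that library. For single arms, the log2 CPM of resistant replicate 3 deviated by -0.31 for miR-625-3p and by 0.91 for miR-625-5p from the mean of resistant replicates 1 and 2, between the quartiles of -1.89 and 1.11 over all tested miRNAs.

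Of the 174 pairs, 4 (2.3%) had both arms called lower by edgeR, miR-181a, miR-548aj, miR-548x and miR-625, and 1 had both called higher, miR-675, which is made from the long non-coding RNA H19. The calls of miR-625 chose it, so its place among these pairs is a description. In resistant replicate 3, where miR-625-5p had 19 counts, the minor arm miR-548x-5p had 0, as did miR-548aj-5p. The minor arm miR-181a-3p had 0 counts in every resistant library. miR-548 members share sequence with many copies, so which hairpin their reads came from is uncertain. In sensitive replicates 1 to 3, miR-548aj-5p had 195, 140 and 88 counts and miR-548x-5p had 202, 145 and 88. The miR-548aj and miR-548x pairs may therefore not be separate observations.

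**Figure D4:**
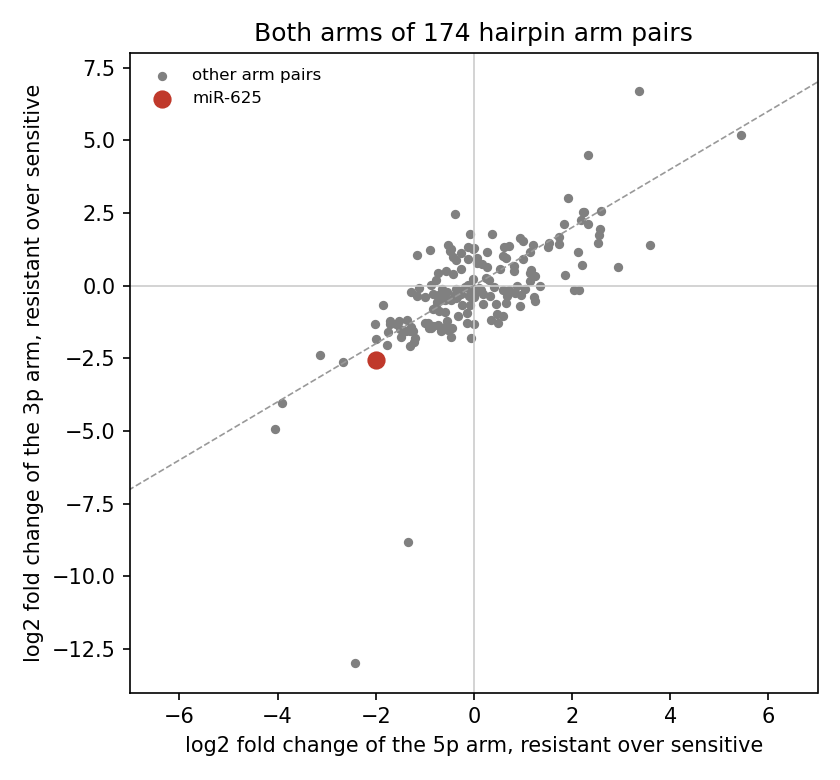
Each point is an arm pair, with the log2 fold change (resistant over sensitive) of its 5p arm on the horizontal axis and of its 3p arm on the vertical axis, over 174 pairs, and the dashed line marks equal change. miR-625 (red) lies at -2.00 and -2.56, near that line.

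Neighbouring miRNAs on chromosome 14 were not used to choose miR-625, though they were measured in the same libraries. The list held the 40 other chromosome 14 hairpins with a mature row in the table that lie outside the imprinted cluster at 14q32 (100852390 to 101066801, left out by position), with 55 mature miRNAs. Of these 55, 32 had no counts in any library and 8 had enough to be tested. Of the 8, 0 passed the edgeR test in either direction, where 4.17% of all tested miRNAs did, and 1 had an unadjusted p under 0.05, against 26.7% of all tested. DESeq2 called 0 of the 9 to which it gave an adjusted p, against 11.0% of all 1018 that had one. The 8 came from only 5 hairpins, and 2 were negative, both arms of MIR624, against 413 of all 768 tested miRNAs. The median log2 fold change of the 8 was 0.40, against -0.11 over all 768 tested miRNAs. It was 0.14 with 3 negative without resistant replicate 3, against 0.04 over all tested there, and 0.03 with 4 negative under a GC correction, against 0.05. Within 2 Mb of MIR625 no other miRNA was tested. miR-4708-3p, whose hairpin lies 136 kb upstream on the other strand, had 0 counts in resistant libraries and 1 count in sensitive ones, and miR-4708-5p had none in either. miR-7855-5p had 4 counts in resistant libraries and 0 in sensitive ones.

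On the upstream side the nearest tested hairpin was MIR624, 34.5 Mb away. Its products had log2 fold changes of -0.73 (edgeR adjusted p = 0.379, SE 0.51) for miR-624-5p, at 34.2 ± 18.0 CPM in resistant and 57.0 ± 4.66 CPM in sensitive cells, and -0.37 (edgeR adjusted p = 0.667, SE 0.54) for miR-624-3p (SD, n = 3 each). Without resistant replicate 3 they were -0.30 for miR-624-5p and 0.018 for miR-624-3p. On the downstream side the nearest were MIR1260A, MIR3173 and MIR342, at 11.8, 29.7 and 34.6 Mb. miR-1260a, which resembles a tRNA fragment and was on the list of fragment-like annotations, had a log2 fold change of 1.20 (edgeR adjusted p = 0.398, SE 0.88) and was lower without resistant replicate 3 (-0.69, SE 0.19, edgeR adjusted p = 0.0163). miR-3173-5p had 0.43 (SE 0.51, edgeR adjusted p = 0.602), and -0.12 without that library. From MIR342, which lies in an intron of EVL, miR-342-3p averaged 157 ± 60.6 CPM in resistant and 121 ± 31.2 CPM in sensitive cells (SD, n = 3 each), with a log2 fold change of 0.38 (edgeR adjusted p = 0.602, SE 0.44). The value was 1.85 (edgeR adjusted p = 0.1495, SE 0.69) for its minor arm, miR-342-5p. Without resistant replicate 3 the log2 fold changes were 0.67 for miR-342-3p and 0.79 for miR-342-5p, with edgeR adjusted p-values of 0.0850 and 0.0597. With no filter on low counts, miR-342-5p was called higher (1.76, SE 0.62, edgeR adjusted p = 0.0488). miR-345-5p averaged 425 ± 53.1 CPM in resistant and 352 ± 98.9 CPM in sensitive cells (SD, n = 3 each), with a log2 fold change of 0.27 (edgeR adjusted p = 0.660, SE 0.39), and the value was 0.65 (edgeR adjusted p = 0.496, SE 0.58) for miR-345-3p. With all 6 libraries and the filter on low counts, none of these 8 miRNAs passed the threshold, which does not show that their levels were equal.

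**Figure D5:**
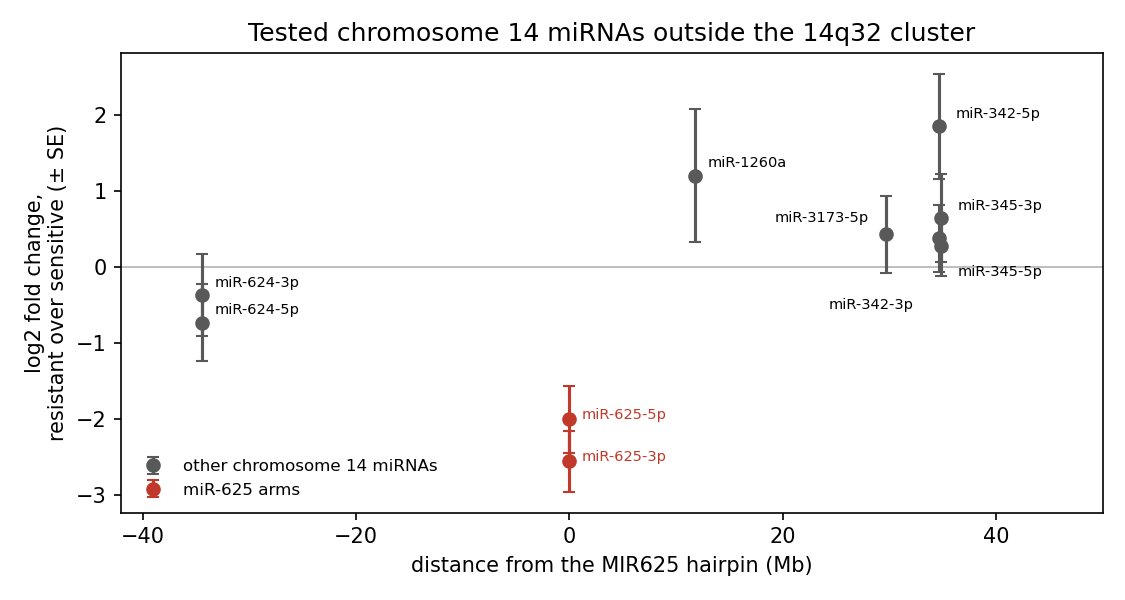
Log2 fold change, resistant over sensitive, with its SE (vertical axis) of the 8 tested chromosome 14 miRNAs outside the 14q32 cluster (grey) and of both miR-625 arms (red), by distance of the hairpin from MIR625 in Mb (horizontal axis). The grey points lie between -0.73 and 1.85, and the miR-625 arms at -2.56 and -2.00.

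The miRNAs most like miR-625 in their pattern over the 6 libraries were sought among the 469 tested miRNAs that averaged 10 CPM or more. Likeness was measured as the root mean square difference in log2 CPM after each miRNA was centred on its own mean, so a lower value is more alike. Nearest to miR-625-3p were miR-145-5p (0.48), miR-145-3p (0.48) and miR-181a-5p (0.50). Nearest to miR-625-5p were miR-181a-5p (0.27), miR-181b-5p (0.33) and miR-145-5p (0.44). The arms themselves lay 0.51 apart, which put each at rank 6 among all tested miRNAs by distance from the other. miR-181a-5p had 1141, 1517 and 654 counts in resistant replicates 1 to 3, against 9646, 7223 and 5721 counts in sensitive replicates 1 to 3. In CPM it was at 116, 114 and 257 in resistant replicates 1 to 3, against 803, 738 and 1058 in sensitive replicates 1 to 3, so that resistant replicate 3 was the highest of the resistant libraries, as for miR-625-5p. miR-145-5p averaged 26.0 ± 3.17 CPM in resistant and 88.4 ± 9.93 CPM in sensitive cells (SD, n = 3 each). These miRNAs share the libraries and their depth with miR-625, whose difference between the groups enters the measure.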

How the data were processed

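The 3 small RNA libraries each of resistant and sensitive K562 cells were made with a NEBNext kit from TriPure-extracted, DNase-treated RNA and sequenced on a NovaSeq, per the labels' protocols. The authors deposited raw read counts per mature miRNA, on GRCh38 per the submitters' processing notes. For the aligner, counter, miRBase release and read filters, the entry is: not given in the sources used here. Adapter ligation can favour some miRNAs, and without molecular identifiers intervals cover counting error only.

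edgeR 4.0.16 in R 4.3.3 compared resistant with sensitive libraries (filterByExpr, minimum count 10 and minimum total 15; TMM; quasi-likelihood test, no covariates; Benjamini-Hochberg over 768 miRNAs). The SE is the absolute log2 fold change over the square root of F. Arm ratios, with 0.5 added to each count, were fitted with limma 3.58.1. DESeq2 1.42.0 was an alternative. The edgeR and limma steps were run on simulated data with the same spread throughout and no outlying library. That checks the code and not the error rates in these libraries. Sequences are from RefSeq, where 2367 of the 2656 table names matched, and the fold from ViennaRNA 2.7.2.

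Members, lists and tests were chosen with earlier results of these data known. Named were both arms, the 3 miRNAs nearest in pattern to each, the tested miRNAs of the 3 nearest chromosome 14 hairpins on each side where as many existed, called members of that list and seed-sharing miRNAs; pairs with both arms or their ratio called, miR-345 and the untested neighbours within 2 Mb were named after their values were seen.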

Additional observations from a re-analysis of the deposited data

How the results depend on the processing

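Both arms of miR-625 kept a negative log2 fold change in all 14 alternatives to the fit and in raw shares of the library totals, an alternative chosen after seeing the data. These reuse the counts that chose miR-625, in which the groups did not overlap, so the kept sign is no independent support. The call of miR-625-5p was lost with RLE factors (-1.84), a minimum mean of 10 CPM (-1.78), the replicate number as a block (-2.03), and that block with a GC correction (-1.85); the cause was not tested. With 1 library left out, the log2 fold changes ran from -2.59 to -2.30 for miR-625-3p and from -2.28 to -1.60 for miR-625-5p. With a GC correction they were -2.15 for miR-625-3p and -1.79 for miR-625-5p. For miR-625-3p the value was also -2.15 with the replicate block added, and these were its smallest changes. The number of miRNAs called was 32 (16 higher, 16 lower) and became 21 with RLE factors, 162 without a filter, 13 with a minimum mean of 10 CPM, 112 with DESeq2, 75 with a GC correction and 4 to 231 with 1 library left out, highest without resistant replicate 3. Library totals alone gave 27 higher and 16 lower and moved the median log2 fold change by 0.20. The arm ratio kept its sign throughout and ran from -0.81 to -0.12 with 1 library left out. Of the chromosome 14 list, 0 to 1 miRNAs were called with 1 library left out, the 1 being miR-1260a, and without a filter miR-342-5p was called (1.76, edgeR adjusted p = 0.0488).

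Chromosome 14 miRNAs that were uncalled with all 6 libraries changed sign as follows. With 1 library left out, the log2 fold changes ran from -0.49 to 0.018 for miR-624-3p, from -0.69 to 1.99 for miR-1260a and from -0.12 to 0.97 for miR-3173-5p, each crossing 0 without resistant replicate 3. In that fit miR-1260a was called lower (-0.69, edgeR adjusted p = 0.0163). With a GC correction they were 0.23 for miR-624-3p, -0.22 for miR-1260a, -0.28 for miR-345-3p and -0.57 for miR-345-5p, and with the replicate block added to it 0.25, -0.50, -0.22 and -0.65 for the same miRNAs. The cause was not tested. Whether the replicate numbers pair the libraries could not be settled from the counts. Deviations of same-numbered libraries from their group means correlated at -0.05, 0.23 and 0.11. Resistant replicate 1 correlated best with sensitive replicate 2 (0.18), whereas resistant replicates 2 and 3 each correlated best with the same-numbered library. With the block, 23 miRNAs were called and 0 of the chromosome 14 list. No alternatives were run for seed-sharing miRNAs, as none share the seed of bases 2 to 8. Depth limits miR-625-5p, at 19 counts in resistant replicate 3, miR-624-3p, at 3 counts there, and miR-345-3p, at 2 counts in sensitive replicate 3.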

Other observations

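With a shorter seed of bases 2 to 7, chosen after the data were seen, no other mature sequence matched miR-625-3p and 6 matched miR-625-5p, all of them rare in these cells. Of these, miR-5010-5p had 4, 5 and 9 counts in resistant replicates 1 to 3, against 12, 13 and 4 counts in sensitive replicates 1 to 3. miR-5698 had 10, 7 and 6 counts in resistant replicates 1 to 3, against 1, 0 and 0 counts in sensitive replicates 1 to 3. It had too few counts to be tested. miR-7111-5p, miR-4723-5p and miR-4525 had at most 4 counts in any library, and miR-6870-5p had none.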
